A study of Mus musculus with 41 samples.

Results

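The genes described here build the transcription factor network of skeletal muscle: the 4 myogenic regulatory factors (MRFs) Myod1, Myf5, Myf6 and Myog, their cofactors Mef2a and Mef2c, and the upstream regulators Pax3, Pax7 and Six4. They are 9 of 21755 protein-coding genes of chromosomes 1 to 19 and X in the mm10 annotation. They were chosen by name for their role, with earlier results of these data known, so counts and p-values are a description. For each gene, every CUT&Tag peak was collected that overlapped the promoter (2 kb on each side of any annotated transcription start site, TSS) or the locus (the gene body with 20 kb on each side). In CUT&Tag, a transposase tethered to an antibody inserts sequencing adapters into the DNA around a histone mark.

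MRFs are basic helix-loop-helix factors that bind the E-box, a short DNA motif written CANNTG, as dimers with ubiquitous E proteins. Myf5 and Myod1 act in the commitment of precursors to the muscle lineage, Myog drives fusion and terminal differentiation, and Myf6 (also known as Mrf4) is the MRF most associated with mature fibres. Mef2a and Mef2c are MADS-box factors that act with the MRFs on muscle genes and also have roles in heart, brain and blood cells. Pax3 marks embryonic muscle progenitors, Pax7 marks satellite cells, the stem cells of adult muscle, and Six4 is a homeodomain factor that acts upstream of the MRFs. H3K4me3 is a mark of active promoters, H3K27ac of active promoters and enhancers, H3K27me3 is the mark of Polycomb-repressed chromatin, and H3K18la is the lactylation of lysine 18 of histone H3.

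The study profiled 8 mouse cell types with 41 samples that form 24 combinations of cell type and mark. Primary myoblasts (MB) grew in DMEM-based medium with serum and fibroblast growth factor, and myotubes (MT) were made from them in low-serum differentiation medium. Gastrocnemius muscle (GAS) was snap-frozen whole tissue, so its lists mix nuclei of fibres, satellite cells, vessels and connective tissue. These 3 are called muscle cell types below. The other 5 were white adipocytes (ADIPO), captured as bead-bound nuclei of epididymal fat from AdipoCre-NuTRAP mice, macrophages grown from bone marrow (BMDM), macrophages sorted from muscle after hindlimb ischemia (PIM), and E14 embryonic stem cells, an established line, in serum-lif (ESC-ser) or 2i-lif (ESC-2i) medium. All samples were controls without further treatment, the primary cells and tissues came from adult C57BL/6 mice, and the study's methods give female mice for the animal work. The ESC-ser lists of H3K27me3 and H3K4me3 do not name their medium and were taken as ESC-ser from the sample descriptions. CUT&Tag was run on nuclei in 6 cell types and on whole cells in the stem cells.

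H3K18la was profiled in all 8 cell types, H3K27me3 in 7 (not ADIPO), H3K27ac in 5 and H3K4me3 in 4. Of the 24 combinations, 17 had 2 samples and 7 had 1, and each gave 1 pooled peak list of between 11002 and 36813 peaks. No value of a single list therefore has a replicate error, and comparisons were made between cell types. The lists differ in size, from 22.6 Mb (BMDM) to 137 Mb (MT) of called bases for H3K18la and from 54.8 Mb (MB) to 173 Mb (MT) for H3K27me3. A larger list can find more promoters by itself, so the count of members called in a list stands beside the percentage of all genes called there. Read numbers were not analysed here, and a place without a called peak can still carry the mark. The coverage summed over the peak bases of a list ranged from 526.8 to 4374 Mb.

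The sequences below belong to places named in the findings that follow. The capital letters mark E-boxes (CANNTG, which reads the same on both strands), and all sequences are 5′ to 3′ on the strand of the gene. The first is 200 bases of the mm10 genome, chr10:107499765-107499964 (minus strand), intergenic and upstream of both Myf6 and Myf5, where the H3K18la peaks of MB, MT and GAS had their maxima within 56 bp of each other, 13.7 kb upstream of Myf5.
Myf5-Myf6 upstream region: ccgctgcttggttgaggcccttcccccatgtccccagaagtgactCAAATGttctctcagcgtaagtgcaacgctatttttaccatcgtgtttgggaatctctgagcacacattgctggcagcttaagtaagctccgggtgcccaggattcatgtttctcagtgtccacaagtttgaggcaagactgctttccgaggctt
The second is chr7:46350209-46350408 (plus strand), intergenic, at the maximum of the widest H3K18la peak over Myod1, which was found in MT.
Myod1 distal region: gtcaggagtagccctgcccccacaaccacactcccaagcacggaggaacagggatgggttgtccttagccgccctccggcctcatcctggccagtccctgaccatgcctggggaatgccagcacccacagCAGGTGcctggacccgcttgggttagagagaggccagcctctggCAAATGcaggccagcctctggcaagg
The third is chr4:139797443-139797642 (minus strand), in an intron of Pax7, where MB, GAS and ESC-ser had H3K18la maxima within 110 bp of each other.
Pax7 intronic region: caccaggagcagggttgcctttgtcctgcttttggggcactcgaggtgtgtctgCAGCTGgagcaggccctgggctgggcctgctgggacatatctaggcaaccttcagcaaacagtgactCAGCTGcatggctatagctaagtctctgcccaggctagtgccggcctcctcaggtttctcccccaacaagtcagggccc
The next 4 are promoter windows of RefSeq (build GRCm38.p6, which is mm10), each 300 bases: Myog at chr1:134289754-134290053 (plus strand), the first and second RefSeq promoters of Mef2c at chr13:83503784-83504083 and chr13:83523406-83523705 (plus strand), of which MT had H3K18la at the first alone and BMDM and PIM at the second alone, and Pax7 at chr4:139832919-139833218 (minus strand), whose promoter was called for H3K27me3 in all 7 lists.
Myog promoter: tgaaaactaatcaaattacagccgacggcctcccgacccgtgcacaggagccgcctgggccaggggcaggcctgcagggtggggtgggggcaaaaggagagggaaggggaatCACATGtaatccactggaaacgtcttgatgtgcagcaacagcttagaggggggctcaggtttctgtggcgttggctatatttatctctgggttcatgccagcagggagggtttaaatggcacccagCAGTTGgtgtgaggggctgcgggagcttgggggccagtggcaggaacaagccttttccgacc
Mef2c first promoter: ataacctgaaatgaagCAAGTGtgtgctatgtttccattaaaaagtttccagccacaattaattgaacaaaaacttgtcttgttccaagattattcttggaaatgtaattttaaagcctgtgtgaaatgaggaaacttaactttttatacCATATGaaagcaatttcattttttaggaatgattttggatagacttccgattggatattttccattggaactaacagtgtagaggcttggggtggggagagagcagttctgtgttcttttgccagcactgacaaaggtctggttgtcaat
Mef2c second promoter: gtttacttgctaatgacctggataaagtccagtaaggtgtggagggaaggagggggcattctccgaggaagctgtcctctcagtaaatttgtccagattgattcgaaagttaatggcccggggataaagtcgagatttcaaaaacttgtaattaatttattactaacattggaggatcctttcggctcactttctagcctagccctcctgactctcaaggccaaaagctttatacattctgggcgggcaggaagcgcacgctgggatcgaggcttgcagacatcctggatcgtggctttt
Pax7 promoter: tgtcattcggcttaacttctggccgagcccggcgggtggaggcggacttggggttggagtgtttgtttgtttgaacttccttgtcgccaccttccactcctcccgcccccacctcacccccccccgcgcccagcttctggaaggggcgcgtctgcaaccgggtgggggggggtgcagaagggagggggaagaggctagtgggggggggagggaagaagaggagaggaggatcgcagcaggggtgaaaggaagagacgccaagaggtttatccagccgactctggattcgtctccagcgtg

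The table of RefSeq promoters held 9 windows of 6 of the 9 genes. Myod1, Myf6 and Pax3 had no entry. E-boxes stood in 72.3% of all 32851 promoter windows, and the Myog window held 2, the first Mef2c window 2, the second none and the Pax7 window none. Of all 9 member windows, 3 held an E-box, the remaining one being the third Mef2c window. The core CAGCTG, present in 16.3% of all windows, was in none of the 9 member windows. A match to the MEF2 consensus, present in 3.19% of all windows, was found once, in the window of Mef2a itself. CpG dinucleotides numbered 27 in the Mef2a window, 17 in that of Pax7 and 16 and 15 in those of Six4, against a median of 7 over all windows, and 9 in Myog, 3 in Myf5 and 1 in the first window of Mef2c. E-boxes numbered 1 in the 200-base Myf5-Myf6 region, 2 in the Myod1 region and 2 in the Pax7 region. Of 200-base windows not shown, those at the Mef2c intronic and Myog upstream maxima held 0, and that at Ppfia4 in the Myog locus held 1. At the maxima of all 33991 MT H3K18la peaks, 74.9% of such windows held an E-box and 30.7% held CAGCTG. The Pax7 region held CAGCTG 2 times, the Ppfia4 window 1 time and the other regions 0 times. MT itself had no peak at the Pax7 region. These are matches of letters, and binding was not measured.

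At promoters, H3K18la calls of the MRF genes were confined to the muscle lists, and those of the cofactors were not. In muscle lists, 17 of 27 pairs of gene and list were called for H3K18la (63.0%, against 27.3% of all genes in the same lists), and in the other 5 cell types 8 of 45 (17.8%, against 34.5%). All 4 MRF promoters were called in at least 1 muscle list and in none of ADIPO, BMDM, PIM, ESC-ser and ESC-2i, a pattern shown by 4.85% of all genes. Myod1 and Myf5 were called in MB, MT and GAS and in no other H3K18la list, as 0.354% of all genes were. The 8 calls outside muscle belonged to Mef2a and Mef2c, each in ADIPO, BMDM and PIM, and to Six4 in both stem cell lists. Pax3 and Pax7 had no H3K18la promoter call in any of the 8 lists, and how many of all genes had none was not counted. The map of calls over all 24 lists shows these blocks.

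**Figure D1:**
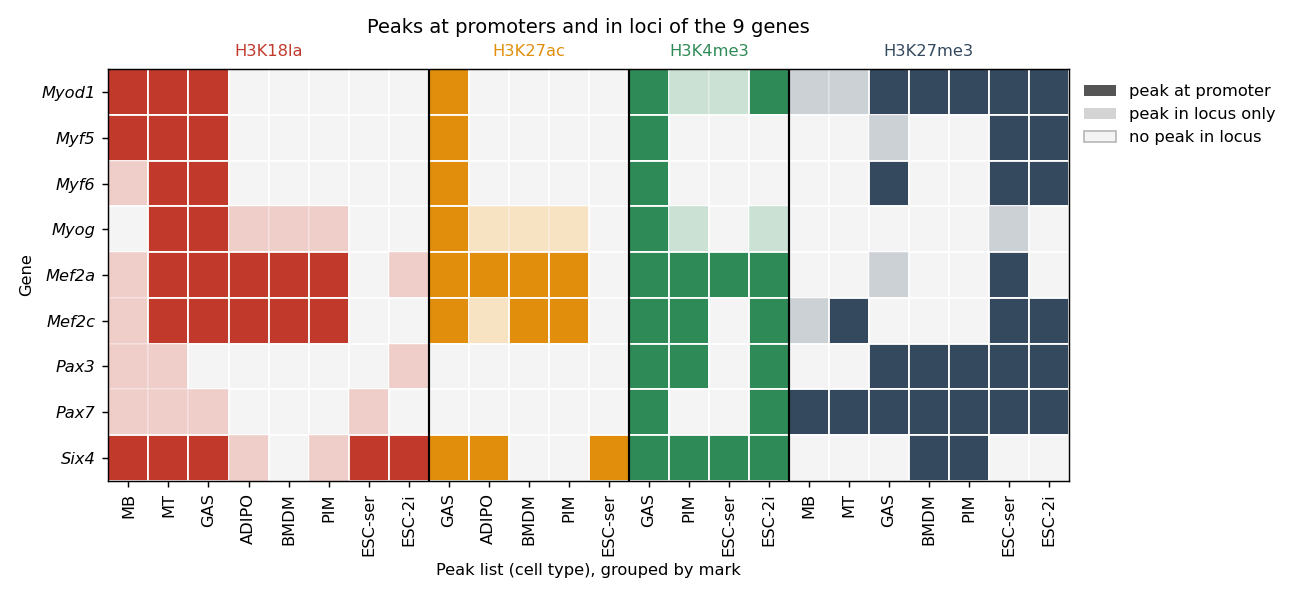
Peaks at the 9 genes (rows) in the 24 peak lists (columns, grouped by mark). Full colour is a peak within 2 kb of a TSS, pale colour a peak in the locus (gene body with 20 kb on each side) but not at the promoter, and grey no peak in the locus. For H3K18la, the rows of Myod1 and Myf5 are filled in MB, MT and GAS and empty in the 5 other cell types, Myf6 is pale in MB, and Pax7 is filled in all 7 H3K27me3 columns.

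List by list, MB had 3 of 9 promoters with H3K18la (Myod1, Myf5, Six4) where 11.1% of all genes were called. MT had 7 of 9 (all but Pax3 and Pax7, background 34.8%), and GAS the same 7 (background 36.1%). ADIPO had 2 of 9 (background 44.7%), BMDM 2 of 9 (18.5%) and PIM 2 of 9 (37.8%), in each case Mef2a and Mef2c. ESC-ser and ESC-2i had 1 of 9, Six4, with backgrounds of 33.4% and 37.8%. The 3 muscle lists thus stood above their backgrounds, and the adipocyte, PIM and stem cell lists below theirs.

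H3K27ac and H3K4me3 were profiled in few muscle lists, and in GAS H3K27ac was called at the same members as H3K18la. The same 7 promoters were called for H3K27ac in GAS (background 47.0%), and all 7 had H3K18la, H3K27ac and H3K4me3 together, as 29.4% of all genes had. GAS H3K4me3 added Pax3 and Pax7, so all 9 promoters were called (background 64.2%). Outside muscle, H3K27ac was at Mef2a and Six4 in ADIPO (46.1%), at Mef2a and Mef2c in BMDM (34.0%) and PIM (48.8%), and at Six4 in ESC-ser (40.2%). H3K4me3 was at 4 promoters in PIM (Mef2a, Mef2c, Pax3, Six4, background 59.4%), at 2 in ESC-ser (Mef2a, Six4, 48.8%) and at 6 in ESC-2i (Myod1, Mef2a, Mef2c, Pax3, Pax7, Six4, 61.8%).

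H3K27me3 at the members was more frequent outside muscle. It was called at 7 of 27 promoter pairs in muscle lists (25.9%, against 18.9% of all genes) and at 21 of 36 in the 4 other cell types (58.3%, against 23.8%). MB had Pax7 (1 of 9, background 12.5%, a call lost with a promoter window of 1 kb), MT had Mef2c and Pax7 (2 of 9, 20.1%), and GAS had Myod1, Myf6, Pax3 and Pax7 (4 of 9, 23.9%). BMDM (19.2%) and PIM (26.4%) had the same 4 promoters, Myod1, Pax3, Pax7 and Six4. ESC-ser had 7 of 9 (all but Myog and Six4, background 27%) and ESC-2i 6 of 9 (these without Mef2a, background 22.5%). Myog was the member with no H3K27me3 promoter call in any list, and how many of all genes had none was not counted.

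Coverage of the whole locus gives a measure that can be compared over cell types. For H3K18la, the share of locus bases in peaks was compared between the 3 muscle and 5 other cell types with an exact two-sided permutation test for every gene with a peak (18579 genes, 56 assignments, smallest p 0.0179, Benjamini-Hochberg adjusted over all genes). No gene passed the adjusted threshold of 0.05 (smallest adjusted p 0.701, exact permutation test), and 803 genes had an unadjusted p under 0.05. Since 56 assignments allow no permutation p below 0.0179, passing after adjustment would need a large share of all genes at that value. The adjusted values thus cannot tell a difference from none. For Myod1, Myf5 and Myf6 every muscle value lay above every other value, as for 2.51% of all genes. No member had every muscle value below the others, as 1.42% of genes had. The median difference, muscle minus other, was 6.12 percentage points over the 9 members and -0.955 over all genes tested. Within the MT list, the H3K18la share of the Myog locus stood at percentile 99.9 of all genes, that of Myf6 at 99.6, Myod1 at 99.5 and Myf5 at 99.4. In GAS the order was Myog (99.4), Myf6 (96.9), Myf5 (96.0) and Myod1 (89.2), and in MB Myf6 (99.1), Myf5 (99.0) and Myod1 (96.8). The 4 MRF loci were thus among the most covered of the genome in MT, and Myod1 was the lowest of them in GAS.

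**Figure D2:**
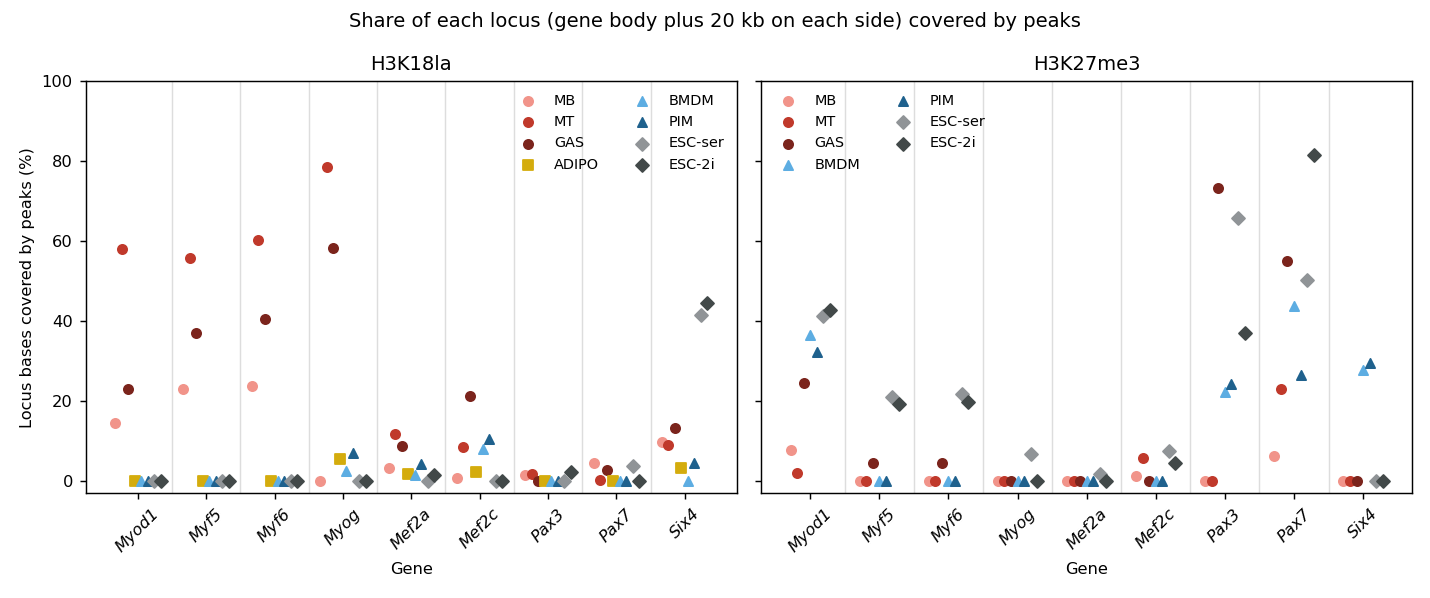
Percent of locus bases (gene body with 20 kb on each side) inside H3K18la peaks (left) or H3K27me3 peaks (right) for the 9 genes, 1 point for each cell type. For H3K18la, MB, MT and GAS lie above a row of zeros at Myod1, Myf5 and Myf6, and at Six4 the stem cell points are highest (41.5% and 44.6%). For H3K27me3 at Myod1, the 3 muscle points lie below the 4 others.

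Myod1 (chromosome 7, 46376474 to 46379099, plus strand), the MRF best known for converting other cells to muscle, had H3K18la over 14.7% of its locus in MB, 58.1% in MT and 23.1% in GAS. It had none in ADIPO, BMDM, PIM, ESC-ser and ESC-2i. The groups did not overlap, with a difference of 32.0 percentage points between means (exact permutation p = 0.0179, adjusted p = 0.701). It was 18.9 without MT and 73.5 within the gene body. In MB, a single peak of 6250 bp ran from -1.6 to 4.7 kb relative to the TSS, with its maximum at -0.2 kb. In MT, the peak reached from -39.6 to 4.8 kb, 44331 bp in all, and ranked 48 of 33991 MT peaks by total signal (percentile 99.9, the share of the list's peaks at or below it). Its maximum stood 26.2 kb upstream, at the second sequence above, not at the promoter. In GAS, the upstream signal was in separate peaks of 5245 bp (maximum at -5.2 kb) and 1920 bp (maximum at -0.3 kb, the promoter call). GAS had another 25.8-kb peak with its maximum 27.4 kb downstream, in an intron of the neighbouring potassium channel gene Kcnc1, overlapping a Kcnc1 promoter. The GAS H3K27ac list had an 11975-bp peak from -7.2 to 4.8 kb and a 23.0-kb peak over Kcnc1, and GAS H3K4me3 had maxima at -5.2 and -0.2 kb. The H3K27ac maximum stood at -5.1 kb, so all 3 active marks of GAS had a maximum 5.1 to 5.2 kb upstream.

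H3K27me3 at Myod1 covered 7.92% of the locus in MB, 2.11% in MT and 24.5% in GAS. It covered 36.7% in BMDM, 32.4% in PIM, 41.2% in ESC-ser and 42.7% in ESC-2i. Every muscle value lay below every other value, as for 6.74% of the 16204 genes tested and 1 of the 9 members, with a difference of -26.7 percentage points (exact permutation p = 0.0286, the smallest that 35 assignments allow, adjusted p = 0.41). Within the gene body the difference was -84.6. In MB and MT, all H3K27me3 of the locus lay beyond 17.4 kb, at Kcnc1, and the Myod1 promoter was free of peaks. BMDM had a 9625-bp domain and PIM a 7803-bp domain centred on the TSS, at percentiles 84.3 and 85.2 of their lists. In the stem cells, the promoter peak was 5034 bp wide in both media. GAS had H3K4me3 and H3K27me3 together at the promoter, the latter in peaks of 2389 and 1211 bp at percentiles 35.2 and 9.21. That pairing was found at Myod1, Myf6, Pax3 and Pax7 in GAS, 4 of 9 members, and at 12.1% of all genes. No gene passed an adjusted 0.05 for H3K27me3 (exact permutation test, smallest adjusted p 0.41), and 1128 genes had an unadjusted p under 0.05. With 35 assignments the adjusted values again cannot tell a difference from none. Muscle values were all above the others for none of the members and 4.82% of genes. The median difference was -8.9 percentage points over the members, all 9 of them below 0, and -0.315 over all genes tested. Without the stem cell lists, the differences of Myf5 (1.52), Myf6 (1.57), Mef2a (0.031), Mef2c (2.33) and Pax3 (1.14) were above 0, that of Myog was 0, and those of Myod1 (-23.0), Pax7 (-6.9) and Six4 (-28.7) were below 0. In such a tissue list, fewer nuclei with a mark and less of the mark in each nucleus cannot be told apart, nor can marks on the same and on different nuclei.

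Myf5 (chromosome 10, 107482908 to 107486134, minus strand) and Myf6 (107492853 to 107494737, minus strand) are neighbours, and their loci share most bases and peaks. H3K18la covered 23.1% of the Myf5 locus in MB, 55.8% in MT and 37.2% in GAS, and 0 in the 5 other cell types. The Myf6 locus had 23.9%, 60.2% and 40.5%, and 0 in the others. Both differences (38.7 and 41.5 percentage points) had the smallest exact permutation p of 0.0179 (adjusted p = 0.701) and are not independent. They were 18.3 and 18.9 with lists reduced to equal bases. The MT peak upstream of Myf6 was 8366 bp wide (percentile 93.8), and in GAS a 13.8-kb peak at percentile 98.6 ran from 6.2 kb upstream of Myf6 across the gene to 1.0 kb upstream of Myf5. The 3 muscle lists shared the position of their strongest peak's maximum. Relative to the Myf6 TSS it was at -5155 bp in MB, -5099 bp in MT and -5133 bp in GAS, in the first sequence above. GAS H3K4me3 had a peak of 2434 bp there too, with its maximum at -5099 bp (percentile 85.6).

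The promoters of the pair differed between MB and MT. Myf5 had a promoter peak in MB (5747 bp, maximum at -1.5 kb) and in MT (6192 bp, maximum at -1.6 kb). Myf6 had none in MB, and in MT a peak of 3078 bp with its maximum at -0.4 kb (percentile 61.2). In GAS H3K4me3, the Myf6 promoter peak was 5307 bp wide at percentile 98.5, and the Myf5 peak 1312 bp wide at percentile 47.0. H3K27me3 covered both promoters in ESC-ser (5969 bp at Myf5 and 3211 bp at Myf6) and ESC-2i (5979 and 2377 bp). It had no peak in both loci in MB, MT, BMDM and PIM, so the macrophage lists held neither an H3K18la nor an H3K27me3 peak there. The GAS call at Myf6 rested on a 1973-bp peak at percentile 0.22, rank 36321 of 36400 peaks.

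Myog (chromosome 1, 134289989 to 134292548, plus strand), the MRF of terminal differentiation, showed the largest gap between MB and MT. H3K18la covered 0 of its locus in MB, 78.6% in MT and 58.4% in GAS. ADIPO had 5.6%, BMDM 2.49%, PIM 6.99% and the stem cell lists 0. The MB value overlapped the others, and the difference of 42.7 percentage points had an exact permutation p of 0.107 (adjusted p = 0.846). Without MB, the MT and GAS values lay above all 5 others, as for 10.5% of all genes. The difference was 65.5 without MB, 26.2 without MT and 9.58 with lists reduced to equal bases. The MT promoter peak was 12862 bp wide, from -7.8 to 5.0 kb, at percentile 97.6 by total signal, with its maximum at -6.7 kb. The GAS promoter peak was 6120 bp wide at percentile 92.2, with its maximum at 0.5 kb, in an exon of Myog. All H3K18la peaks of ADIPO, BMDM and PIM in this locus lay 12.0 to 15.3 kb downstream, inside the neighbouring gene Ppfia4, and overlapped a Ppfia4 promoter. MT and GAS also had peaks there, and the MT, GAS, ADIPO and BMDM maxima fell within 202 bp. H3K27me3 in the Myog locus was found in ESC-ser alone (6.92%), also inside Ppfia4, 7.8 to 10.8 kb downstream. The Myog promoter therefore had no H3K18la peak in MB and the 5 non-muscle lists, and no H3K27me3 peak in any of the 7.

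**Figure D3:**
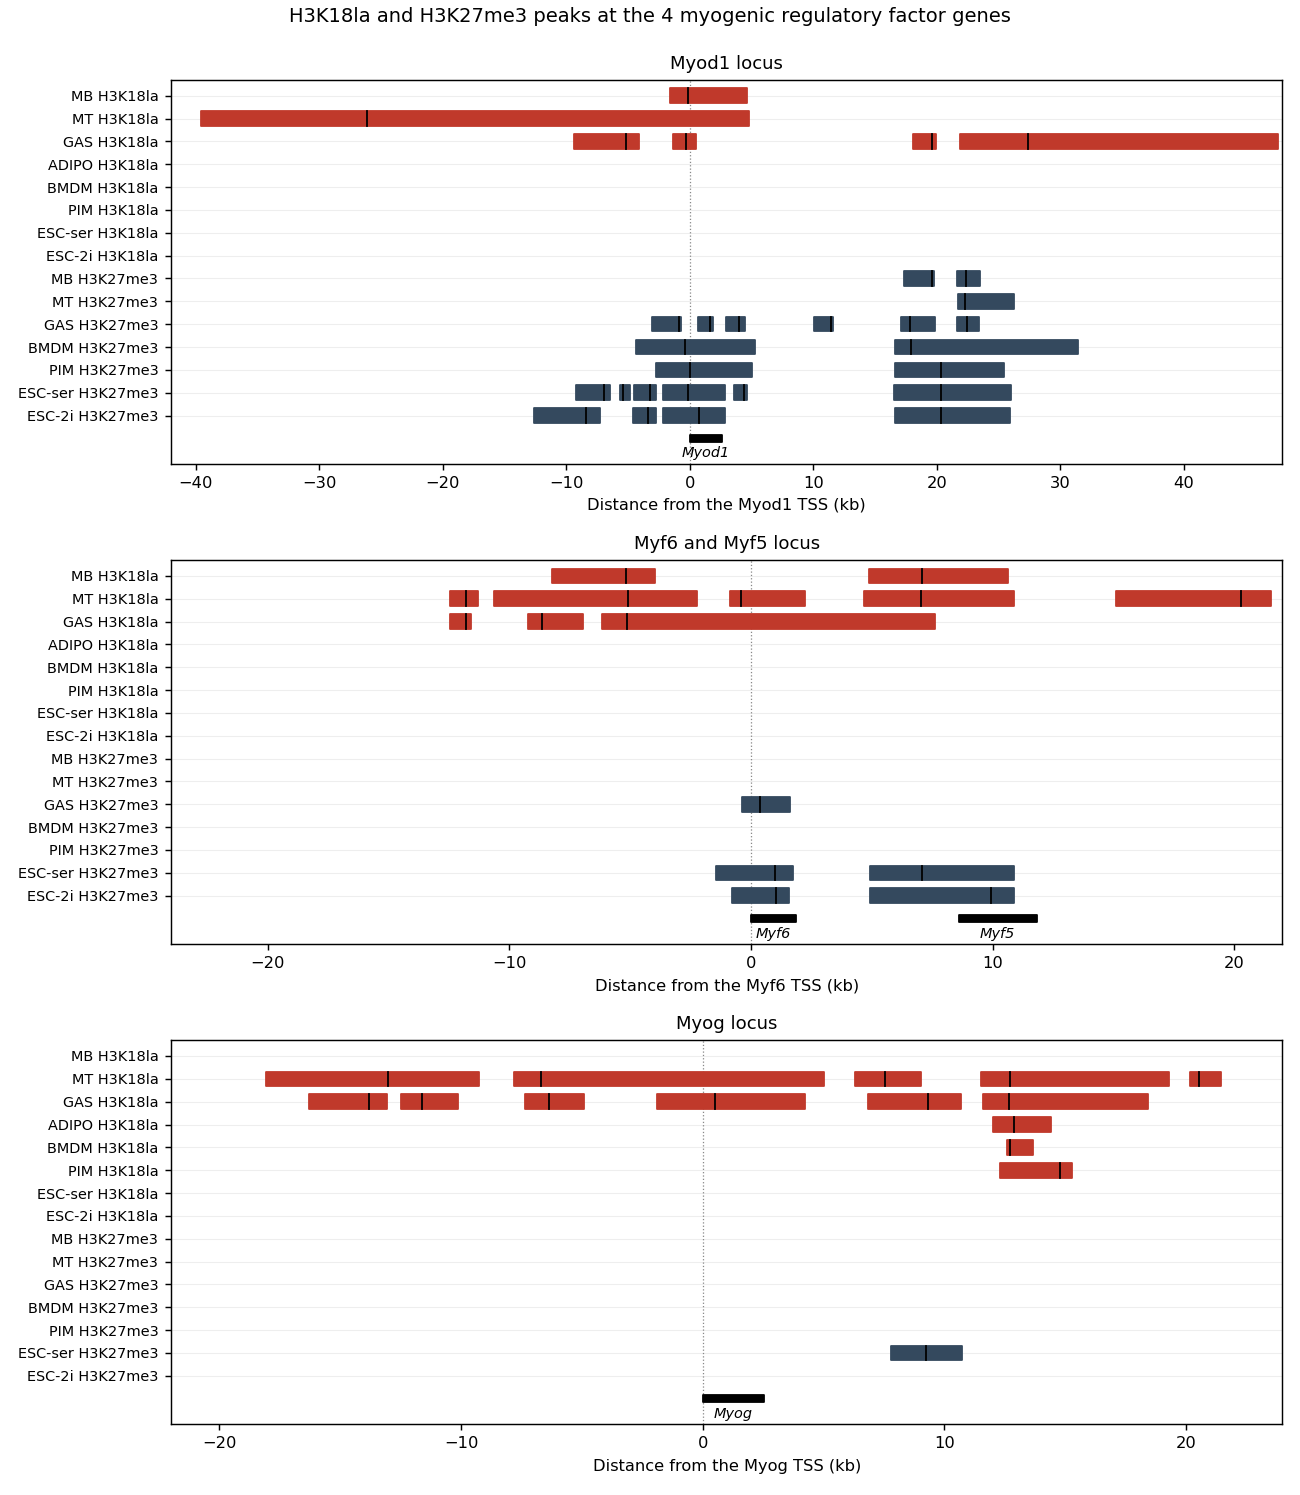
H3K18la (red) and H3K27me3 (dark blue) peaks that touch the Myod1, Myf6 and Myog loci, by list, against the distance from the TSS in kb, with a black tick at each peak's maximum and the genes as black bars. The MT peak over Myod1 spans 44331 bp, the maxima of MB, MT and GAS align 5.1 to 5.2 kb upstream of Myf6, and the ADIPO, BMDM and PIM peaks at Myog lie beyond 12 kb.

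From MB to MT, 4 members gained an H3K18la promoter call (Myf6, Myog, Mef2a, Mef2c), as 24.6% of all genes did, and none lost one, as 0.91% of genes did. MT has many more peaks than MB (33991 against 13550). With the MT list reduced to its peaks of largest total signal until it covered as many bases as MB (3712 peaks, an alternative added after the data had been seen), Myog was the 1 member gained, beside 1.43% of all genes, and Myf5 and Six4 had a call in MB and not in MT, beside 7.69%. The MT calls kept were Myod1 and Myog, with 4.87% of all genes called. The gain at Myog was kept under this cut, and those at Myf6, Mef2a and Mef2c were not. The cut kept all MB peaks and ranked MT peaks by total signal, which favours wide peaks. It therefore cannot decide which gains hold. MB had 1 sample and MT 2.

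Among the cofactors, Mef2a (chromosome 7, 67231163 to 67372858, minus strand) had H3K18la at its first start in MT, GAS, ADIPO, BMDM and PIM. Locus shares were 3.34% in MB, 11.8% in MT and 8.97% in GAS, and 1.98% in ADIPO, 1.62% in BMDM, 4.37% in PIM, 0 in ESC-ser and 1.53% in ESC-2i. MB and PIM overlapped, and the difference of 6.12 percentage points had an exact permutation p of 0.0357 (adjusted p = 0.826). It was 2.03 with lists reduced to equal bases and 1.5 within the gene body. The promoter peak was 4859 bp wide in MT and 5969 bp in GAS, against 567 bp in ADIPO, 1911 and 1027 bp in BMDM and 2989 and 1638 bp in PIM. In MT the strongest peak of the locus was not at the promoter but 11.2 to 19 kb upstream, 7830 bp wide at percentile 96.8. MB had peaks in the same stretch, with maxima at -18.2 and -12.4 kb, and no promoter call. MT and GAS also had peaks 129.3 to 157.2 kb into the locus, which lay in or beside the overlapping gene Lysmd4 and the gene 1700112J16Rik. H3K27me3 at the promoter was found in ESC-ser (3253 bp, percentile 69.2).

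Mef2c (chromosome 13, 83504034 to 83667080, plus strand) has 27 annotated starts in 7 groups, and the lists differed in the groups they marked. The first group, 3 starts within 0.2 kb, had H3K18la in MT and GAS, and H3K27ac and H3K4me3 in GAS, and in none of the other lists. The second group, 11 starts 19.4 to 20.9 kb downstream, had H3K18la in GAS, ADIPO, BMDM and PIM, and not in MT. The fourth, 9 starts at 68.3 to 71.6 kb, had it in GAS, BMDM and PIM. The seventh, a single start at 148.9 kb, had it in MT and PIM, so these lists shared this group. H3K27me3 was found at the second group in MT, ESC-ser and ESC-2i, and at the first in no list. In MT, the first group lay under a 5223-bp H3K18la peak with its maximum at 0.1 kb (percentile 80.9), and the second under an 11675-bp H3K27me3 peak (percentile 70.7). In BMDM, the second group had a 2392-bp H3K18la peak at percentile 84.5 and PIM a 2786-bp peak at percentile 86.6, whereas the ADIPO peak stood at percentile 1.88. PIM H3K4me3 spanned the second group with 8653 bp at percentile 99.2. Counting the first start alone removed Mef2c from the promoter calls of ADIPO, BMDM and PIM, and the count outside muscle was then 5 of 45 in place of 8, beside 30.7% of all genes in place of 34.5%.

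Within the gene, an intronic H3K18la peak about 100 kb downstream of the first start was found in MB, MT, GAS, ADIPO, BMDM and PIM. The maxima in MB, MT, GAS, ADIPO and PIM lay within 501 bp of each other, and that of BMDM at 97.9 kb. In MB it was the sole peak of the locus, 1929 bp at percentile 5.6, and in BMDM a 5321-bp peak at percentile 98.0, the strongest of the locus there. H3K18la covered 0.95% of the locus in MB, 8.49% in MT and 21.4% in GAS, against 2.24% in ADIPO, 8.12% in BMDM, 10.6% in PIM and 0 in both stem cell lists. The groups overlapped (difference 6.1 percentage points, exact permutation p = 0.25, adjusted p = 0.846). The difference was 0.53 without GAS and 10.8 without MB, and its direction turned with the 5000 strongest peaks of each list (-2.03), with lists reduced to equal bases (-2.31) and after division by the genome share of each list (-0.581).

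**Figure D4:**
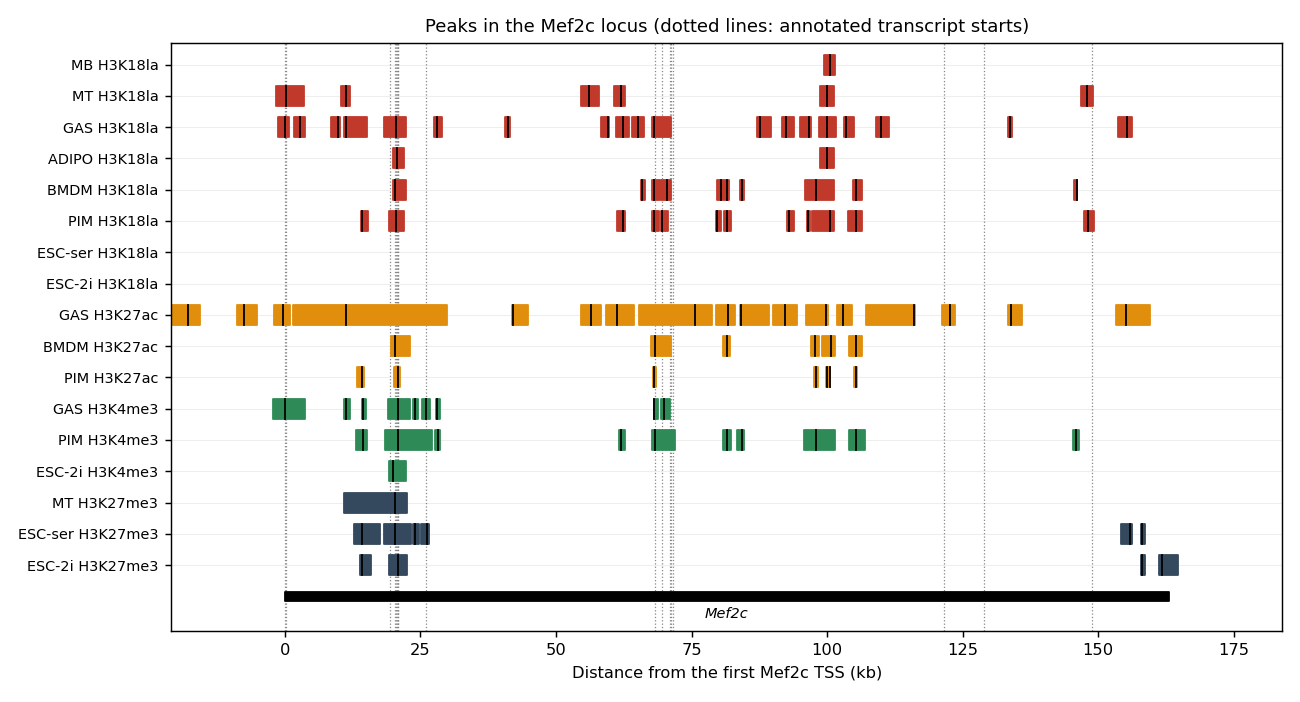
Peaks in the Mef2c locus by list, against the distance in kb from the first Mef2c TSS, with H3K18la in red, H3K27ac in orange, H3K4me3 in green and H3K27me3 in dark blue, a black tick at each maximum and dotted lines at the annotated starts. MT marks the start at 0 kb, BMDM and PIM mark the groups at 19.4 to 20.9 and 68.3 to 71.6 kb, MT and PIM both mark the start at 148.9 kb, and MT H3K27me3 covers the group at 19.4 to 20.9 kb.

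Of the upstream regulators, Pax3 (chromosome 1, 78101267 to 78197134, minus strand) had little H3K18la in any list: 1.53% of the locus in MB, 1.75% in MT, 2.41% in ESC-2i and 0 in GAS and the others. Its H3K27me3 was broad in 5 lists and had no peak in MB and MT. It covered 73.3% of the locus in GAS, 22.3% in BMDM, 24.3% in PIM, 65.9% in ESC-ser and 37% in ESC-2i. GAS had 2 very wide peaks, 27006 bp over the promoter (percentile 99.8) and 21775 bp within the gene (percentile 99.1). BMDM and PIM each had a domain over the promoter, 33855 bp (percentile 97.2) and 35388 bp (percentile 99.2). The cell types of muscle thus held both the lowest values and the highest (exact permutation p = 0.6, adjusted p = 0.878), and without GAS the MB and MT values lay below all 4 others, as for 11.9% of all genes. H3K4me3 was called at the same promoter in GAS, PIM and ESC-2i.

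Pax7 (chromosome 4, 139737062 to 139833528, minus strand) was the member with an H3K27me3 promoter call in all 7 lists. How many of all genes had such calls was not counted. The locus share was 6.27% in MB, 23.2% in MT and 55.1% in GAS, and 43.7% in BMDM, 26.5% in PIM, 50.2% in ESC-ser and 81.5% in ESC-2i (exact permutation p = 0.286, adjusted p = 0.712). In MB the peaks of 6756 and 1804 bp lay inside the gene, from 2.0 kb downstream of the TSS, whereas in MT a peak of 28652 bp (percentile 95.9) spanned the TSS. The peak over the TSS was 43592 bp wide in BMDM, 29169 bp in PIM, 37623 bp in ESC-ser (percentile 99.9) and 43325 bp in ESC-2i (percentile 99.7). The H3K18la of Pax7 was distal, in peaks at or below percentile 52.9 of their lists by total signal. By maximum signal the strongest peak of the locus stood higher, at percentile 70.3 in MB, 72.9 in MT and 74.6 in GAS. MB and MT had peaks with a maximum 116.9 kb downstream of the TSS, beyond the gene, which in MT was the sole peak of the locus. MB and GAS each had an intronic peak with its maximum 36.0 kb downstream of the TSS, 1849 bp at percentile 32.4 and 1637 bp at percentile 34.0, and ESC-ser one at 35.9 kb (percentile 6.67), the third sequence above. The GAS H3K27me3 list had a 7592-bp peak over the same intronic stretch. H3K4me3 and H3K27me3 were together at the Pax7 promoter in GAS and ESC-2i. In ESC-2i this pairing was found at Myod1, Mef2c, Pax3 and Pax7, 4 of 9 members, and at 14.2% of all genes.

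**Figure D5:**
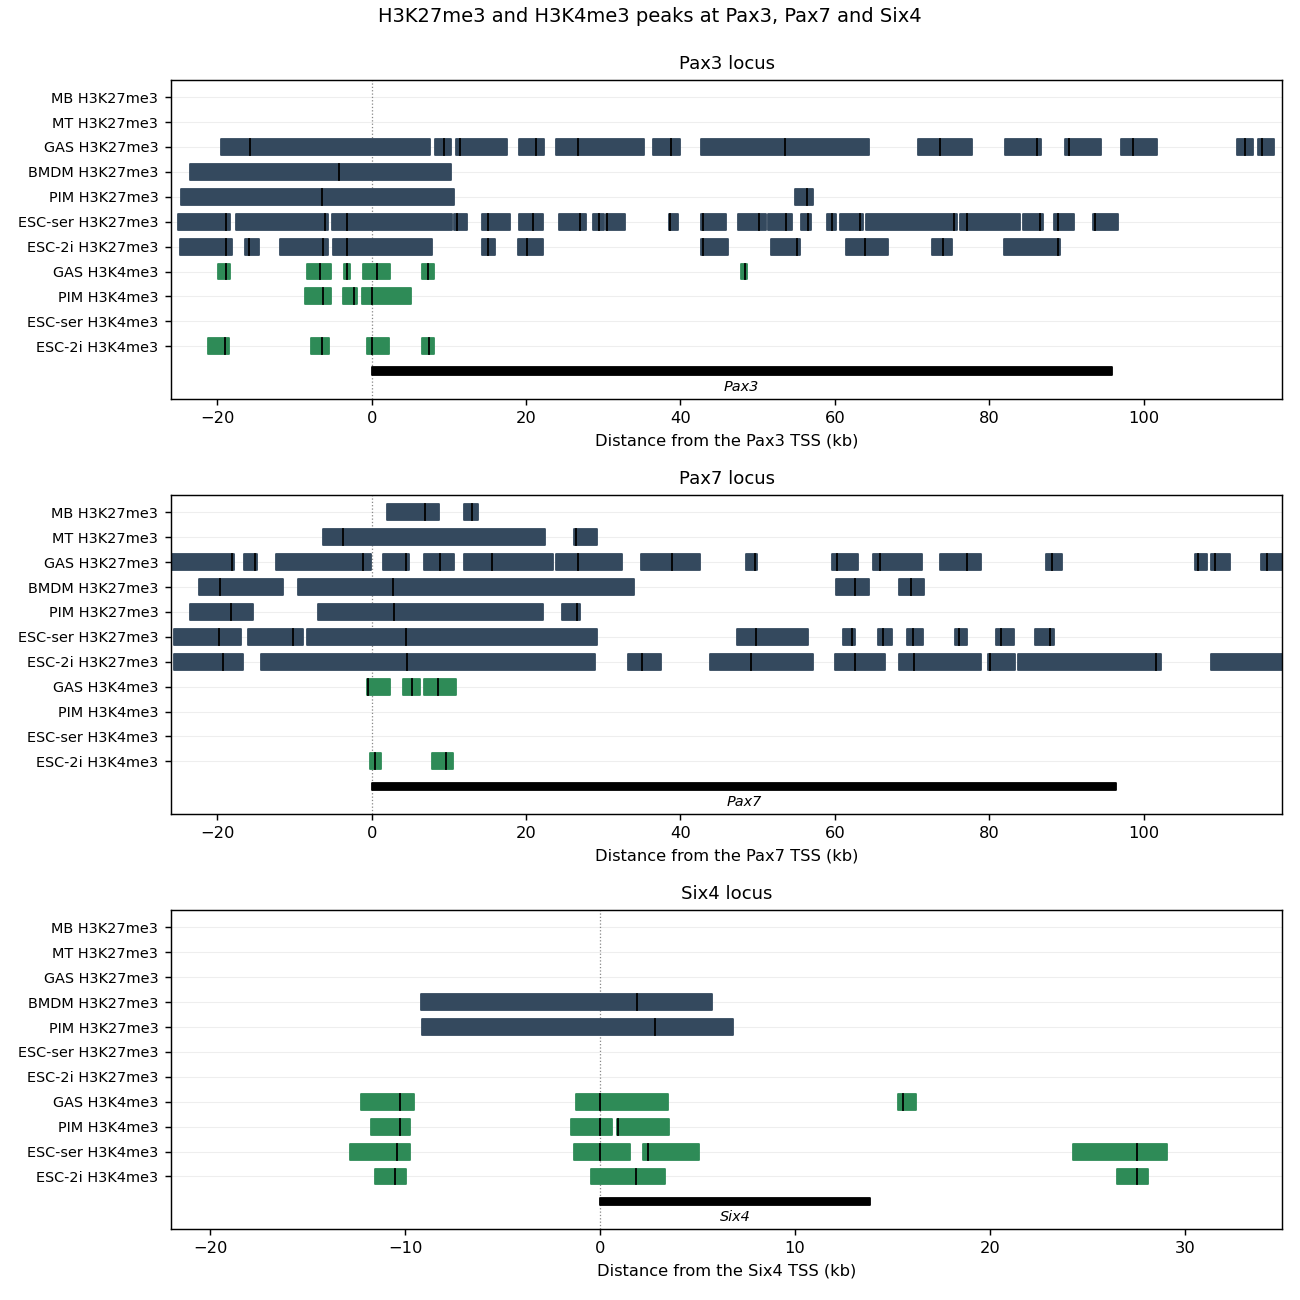
H3K27me3 (dark blue) and H3K4me3 (green) peaks at Pax3, Pax7 and Six4 by list, against the distance from each TSS in kb, with a black tick at each maximum and the gene as a black bar. Pax3 is empty in MB and MT and broadly covered in GAS and ESC-ser, Pax7 has H3K27me3 in all 7 lists, and Six4 has it in BMDM and PIM alone.

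Six4 (chromosome 12, 73099609 to 73113456, minus strand) had H3K18la promoter peaks in MB, MT, GAS, ESC-ser and ESC-2i. The MB peak (2794 bp) began 0.6 kb into the gene with its maximum at 2.8 kb, and the maxima of MT, GAS, ESC-ser and ESC-2i lay at the TSS itself, between -2 and 5 bp. The locus share was 9.84% in MB, 9.06% in MT and 13.4% in GAS, 3.43% in ADIPO, 0 in BMDM, 4.49% in PIM, 41.5% in ESC-ser and 44.6% in ESC-2i. The 2 stem cell values were far above the 6 others, and the direction of the difference (-8.02 percentage points, exact permutation p = 0.571, adjusted p = 0.895) turned to 8.13 without them, to 1.73 with flanks of 50 kb and to 11.9 within the gene body. The stem cell signal lay mostly beyond the 3′ end, with the maximum 27.5 kb downstream of the TSS in a 7154-bp peak (percentile 97.6) in ESC-ser and an 18903-bp peak (percentile 97.4) in ESC-2i. ESC-ser H3K27ac and H3K4me3 and ESC-2i H3K4me3 had maxima at the same 27.5 kb. H3K27me3 was found in macrophages alone, as single domains of 14949 bp in BMDM (27.8% of the locus, percentile 87.6) and 15936 bp in PIM (29.6%, percentile 96.0) over the promoter, which also overlapped the promoter of the neighbour Mnat1. PIM had H3K4me3 at the same Six4 promoter, in peaks of 2083 and 2669 bp.

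The genes whose locus shares were most like those of each member over the 24 lists, outside 500 kb on the same chromosome, were taken by Pearson's r as a description, since the lists share cell types and differ in size. They were Prss23, Mrgpre and Vgll2 for Myod1 (0.93, 0.92, 0.91), Pkia, Cxcl13 and Itgb6 for Myf5 (0.94, 0.93, 0.93) and for Myf6 (0.94, 0.94, 0.93), and Gm4737, Ccdc192 and Bbs9 for Myog (0.98, 0.97, 0.96). For the cofactors they were Tcf12, Mrtfa and Pja2 for Mef2a (0.99, 0.98, 0.98) and Parp8, Cpeb4 and Tgfbr1 for Mef2c (0.97, 0.97, 0.96). For the upstream genes they were Irx1, Rspo3 and Tmem200c for Pax3 (0.96, 0.96, 0.96), Osbp2 and 3100002H09Rik for Pax7 (0.98, 0.96), and Nkain1 and Ly6g6f for Six4 (0.93, 0.93).

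Other genes of the network were counted at promoters in the same lists. Their counts stand against the shares of all genes called, which were 11.1% in MB, 34.8% in MT, 36.1% in GAS, 44.7% in ADIPO, 18.5% in BMDM, 37.8% in PIM, 33.4% in ESC-ser and 37.8% in ESC-2i for H3K18la. For H3K27me3 they were 12.5% in MB, 20.1% in MT, 23.9% in GAS, 19.2% in BMDM, 26.4% in PIM, 27% in ESC-ser and 22.5% in ESC-2i. Of 18 further upstream factors (among them Eya, Pitx, Tbx and Meox genes), H3K18la was called at 6 in MB, 9 in MT and 13 in GAS, at 5 in ADIPO, ESC-ser and ESC-2i, at 1 in PIM and at 0 in BMDM. That is 33.3%, 50% and 72.2% in the muscle lists, above all genes there, and 0 to 27.8% in the others, below all genes. H3K27me3 was called at 16 of them in BMDM and in PIM, 15 in ESC-ser, 14 in ESC-2i and 13 in GAS, but at 3 in MB (16.7%) and 5 in MT (27.8%). The other 5 lists thus had 72.2% to 88.9% of the list, far above all genes, and MB and MT were closer to theirs. Eya4, of the Eya family of cofactors that act with Six4 and its relatives, was the 1 gene of this list with H3K18la in the 3 muscle lists and no other.

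Of 16 partners and coactivators (E proteins, MEF2 and SRF family members and chromatin cofactors), H3K18la was called at 6 in MB, 11 in MT, GAS and ADIPO, 8 in BMDM, PIM and ESC-2i, and 6 in ESC-ser. These shares, from 37.5% in MB and ESC-ser to 68.8% in MT, GAS and ADIPO, were above those of all genes in every list, by the least in ESC-ser. None was called in all 3 muscle lists and no other, and Cdon, Mef2d, Mrtfa and Smarcd3 were among the 6 called in all 3 muscle lists. H3K27me3 was called at between 2 (MB, GAS) and 5 (PIM, ESC-ser) of the 16, 12.5% to 31.2%, near the shares of all genes except in GAS, where it was lower. Of 20 inhibitors of myogenesis, H3K18la was called at 11 in MB, 15 in MT, 16 in GAS and 7 (BMDM) to 12 (ADIPO) elsewhere, above the share of all genes in every list (55.0%, 75.0% and 80.0% in the muscle lists and 35% to 60% in the others). Snai2, a zinc finger repressor that can occupy E-boxes of muscle genes, was called in MB, MT and GAS and in no other H3K18la list, the pattern of Myod1 and Myf5. H3K27me3 was at 3 inhibitors in MB (15.0%) and 4 in MT and GAS (20%), near all genes, and at 8 to 14 in the others (40.0% to 70.0%), above all genes.

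Of 13 genes known from quiescent satellite cells, H3K18la was called at 6 in MB, 9 in MT and GAS, and 3 to 5 elsewhere. The muscle shares (46.2%, 69.2% and 69.2%) were above those of all genes, and those elsewhere (23.1% to 38.5%) lay below or near them. H3K27me3 was at 2 of the 13 in MB and MT, 5 in GAS and 7 to 10 in the others. Cdh15 (M-cadherin) and Vcam1, both adhesion proteins of satellite cells, were called in the 3 muscle lists and no other, whereas Pax7 itself was called in none. Of 34 targets expressed in muscle fibres, H3K18la was called at 11 in MB, 29 in MT and 22 in GAS, against 11 in ADIPO, 9 in ESC-ser and ESC-2i, 6 in PIM and 3 in BMDM. That is 32.4%, 85.3% and 64.7% in the muscle lists, above all genes there, and 8.82% to 32.4% in the others, below all genes. Tnnt3, a fast troponin T, and Ttn, the giant sarcomere protein titin, were called in all 3 muscle lists and no other. H3K27me3 was at 5 targets in MB, 6 in MT, 8 in GAS (14.7% to 23.5%, near all genes) and 12 to 20 in the other lists (35.3% to 58.8%, above all genes).

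The labelled cell types were checked against markers. H3K18la was called at 8 of 8 stem cell marker promoters in ESC-ser and ESC-2i, at 10 of 10 macrophage markers in BMDM and PIM and at 8 of 8 adipocyte markers in ADIPO. Stem cell markers were at 0 of 8 in MB, MT, ADIPO, BMDM and PIM and at 2 of 8 in GAS. Macrophage markers were at 0 of 10 in MB, at 3 of 10 in MT, GAS and ADIPO, at 1 of 10 in ESC-ser and at 2 of 10 in ESC-2i. Adipocyte markers were at 5 of 8 in PIM (62.5%, against 37.8% of all genes), 3 of 8 in GAS, 2 of 8 in BMDM, 1 of 8 in MB and ESC-ser and 0 of 8 in MT and ESC-2i. In GAS, promoters of 6 of 6 endothelial, 5 of 6 fibroblast, 3 of 10 macrophage and 3 of 8 adipocyte markers were called (all genes 36.1%), beside the muscle targets. In MT these counts were 1 of 6, 3 of 6, 3 of 10 and 0 of 8 (all genes 34.8%). The part of these other cells in the GAS and MT values was not tested.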

How the data were processed

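CUT&Tag data of 4 histone marks in 8 mouse cell types (41 samples, 24 combinations) were analysed as the peak lists that the authors deposited, 1 pooled list for each combination. Per the labels and the study's methods, the authors trimmed reads with Trim Galore 0.6.6, aligned them to mm10 with Bowtie2 2.4.4, processed them with SAMtools 1.13 and bedtools 2.30, combined replicates and called peaks with SEACR 1.3 in stringent mode, keeping the top 1% of regions without a control. The study's analysis left out peaks in blacklisted regions, and whether this was done before deposit was not given in the sources used here. Each deposited peak carries a total signal (coverage summed over its bases) and a maximum signal with its position. Both are whole numbers that were not scaled to depth, so signal was ranked within lists only. Whether duplicate reads were removed was not given in the sources used here.

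Genes and starts came from the GENCODE vM21 annotation of mm10. A promoter was called when a peak overlapped it by 1 bp. Locus shares were compared over cell types with an exact permutation test on all genes with a peak. All replicates had been pooled, so the cell type was the unit of the test. The cell types are related: MT were made from MB, ESC-ser and ESC-2i are the same line in different media, and BMDM and PIM are both macrophages. The test treats them as independent, so its p-values are a description. The members and gene lists were chosen with earlier results of these data known. Genes named beside the members followed a rule: the 3 most like each member by Pearson's r over the lists (some are not reported here), and at most 4 from each list, called for H3K18la in the 3 muscle lists alone or else in most of them, in alphabetical order. Calculations used Python 3.11.15, numpy 2.4.6 and pandas 2.3.3, figures matplotlib 3.10.9. Interval functions were checked against bedtools 2.31.1 and the permutation test was run on simulated data. Alternatives varied the promoter window, starts, overlap, flanks, peak number, bases per list, scaling and the cell types used.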

Additional observations from a re-analysis of the deposited data

Results flagged for a closer look

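Among the non-muscle cell types, 4 locus shares of 18 groups examined stood apart from the rest of their group by Dixon's ratio. In each the other values were exactly 0, so the ratio is at its largest whatever the size of the value, the usual chance rate of about 1 in 20 does not apply, and the values are given as a description. In H3K18la, Pax3 had 2.41% of its locus covered in ESC-2i and 0 in the 4 other cell types, from an intronic peak at percentile 1.16 of its list. Pax7 had 3.95% in ESC-ser and 0 in the 4 others. In H3K27me3, Myog had 6.92% in ESC-ser and 0 in BMDM, PIM and ESC-2i, from a peak inside Ppfia4, and Mef2a had 1.79% in ESC-ser and 0 in the same 3 lists, from its promoter peak.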

How the results depend on the processing

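No paired analysis was possible because replicates were pooled in the deposited lists. H3K18la promoter calls in muscle lists (17 of 27, beside 27.3% of all genes) became 10 with the 5000 strongest peaks of each list (6.4%) and 7 with lists reduced to the bases of the smallest of the mark (3.36%), and those in other lists (8 of 45, 34.5%) became 5 with the first start alone (30.7%) and 3 under both reductions (9.56% and 7.93%). H3K27me3 calls in muscle lists (7, 18.9%) became 4 under both reductions (9.7% and 9.79%). Other windows and overlaps moved no count by over 1.5 times, and no alternative moved the 21 H3K27me3 calls in other lists by as much. Members with every muscle H3K18la share above the rest (3, and 2.51% of all genes) became 1 with the gene body alone and at equal bases (Myod1; 2.64% and 0.884%), and 5 among nuclei (with Pax7 and Six4; 5.63%). Leaving out a cell type gave 3 to 5, with 5 without MB (Myog and Mef2a added; 10.5%). For H3K27me3 the count below (1, Myod1; 6.74%) became 2 among nuclei (Six4 added; 18.2%, so near all genes) and 1 to 3 when a cell type was left out, with 3 without GAS (Pax3 and Pax7 added; 11.9%).

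Of 261 recomputed member differences, 16 changed sign, none of them at Myod1, Myog or Pax7 or for H3K18la at the other MRFs. A difference that fell to 0 was not counted as a change. For H3K18la, Pax3 and Pax7 fell to 0 with 5000 peaks and at equal bases. For H3K27me3, Myog fell to 0 with the gene body, with 5000 peaks, among nuclei and without ESC-ser, and Mef2a with 5000 peaks. For H3K18la, Six4 became 1.73 with 50 kb flanks, 11.9 with the gene body and 8.13 among nuclei, and Mef2c -2.03 with 5000 peaks, -2.31 at equal bases and -0.581 divided by the genome share. For H3K27me3, flanks of 50 kb gave 2.02 at Mef2a and 0.693 at Mef2c. Among nuclei the values were 1.52 at Myf5, 1.57 at Myf6, 0.031 at Mef2a, 2.33 at Mef2c and 1.14 at Pax3. Leaving out each cell type in turn gave values between -0.566 and 0.031 (without ESC-ser) at Mef2a, where all cell types gave -0.417. At Mef2c they lay between -2.43 and 0.785 (without ESC-ser, and 0.443 without GAS), where all gave -0.724. Causes were not tested. Ranked by maximum signal, 9 of 25 strongest muscle peaks moved by over 10 percentile points, down at Myod1 in MB (77.6 to 28.1), Myog in MT (97.6 to 83.8) and Six4 in MB and MT (70.2 to 44.6, 68.1 to 50.8), and up at Mef2a in MB (65.8 to 78.9), Pax3 in MT (46.5 to 74.1) and Pax7 in MB, MT and GAS (49.8 to 70.3, 52.9 to 72.9, 34.0 to 74.6).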
